A study of Mus musculus with 9 samples.

Results

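The genes described here are 10 genes of protein folding in the endoplasmic reticulum (ER) and of its stress response: the chaperones Hspa5, Hsp90b1 and Calr, the disulfide isomerases Pdia3, Pdia4 and Pdia6, the transcription factors Xbp1, Atf4 and Ddit3, and the co-chaperone Dnajb9. They were chosen by name, as the entries of the count tables whose gene IDs map to these mouse symbols. All 10 listed genes were found, in 11 entries of 56262. The symbol Ddit3 has a second entry of 105 exon bases that lies inside the other one and held no count in any library, so Ddit3 below is the entry with counts. All 10 genes passed the filter on low counts.

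RNA was sequenced from long-term hematopoietic stem cells (LT-HSCs), the rare marrow cells that sustain blood formation, of wild-type C57BL/6 mice. 5-FU+FMT mice received 5-FU (5-fluorouracil, which kills dividing cells) at 250 mg/kg and then FMT, an agent that the labels do not spell out, at 5 mg/kg into a vein 1, 4 and 7 days later. 5-FU+Saline mice received the same 5-FU and then saline, which the submitters also call PBS, and Control mice were untreated. Each group held 3 libraries. Cells of the 5-FU+Saline and 5-FU+FMT groups were taken on day 8, and no day is given for Control. Cells were sorted, per the labels, as Lin-, Sca1+, c-Kit+, CD150+ and C48- (read here as CD48-). The labels do not say that the libraries came from separate mice, so p-values measure the spread between these libraries, which may be technical.

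The ER folds proteins that are secreted or sit in membranes. Hspa5 (BiP) binds unfolded chains and also holds the ER stress sensors inactive. When unfolded protein builds up, the sensor IRE1 (Ern1) splices Xbp1 mRNA, PERK (Eif2ak3) phosphorylates eIF2, which lowers most translation but raises that of Atf4, and ATF6 is cut to an active factor. Atf4 is also reached by other eIF2 kinases that sense amino acid shortage, viral RNA or heme shortage, a route called the integrated stress response. In blood stem cells the pathway is known as a regulator of survival under stress.

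A classical target sequence of ATF6 and XBP1 in promoters is the ER stress element (ERSE), CCAAT, then 9 bases of any kind, then CCACG. It was searched on both strands of RefSeq promoter windows (GRCm38.p6, 250 bases before to 50 after the start), which were found for all 10 genes. Only exact matches of the fixed letters were counted, so an element that deviates from them was not found. The elements of Hspa5, Calr and Pdia6 and a stretch of the Hsp90b1 promoter are shown because these genes share the element and yet differed in how they changed. Capitals mark its fixed letters.

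Hspa5, chr2:34772020-34772048, plus strand: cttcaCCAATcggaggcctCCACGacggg
Calr, chr8:84847070-84847098, plus strand: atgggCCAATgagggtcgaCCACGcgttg
Pdia6, chr12:17266486-17266514, plus strand: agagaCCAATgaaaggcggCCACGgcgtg
Hsp90b1, chr10:86705523-86705666, minus strand: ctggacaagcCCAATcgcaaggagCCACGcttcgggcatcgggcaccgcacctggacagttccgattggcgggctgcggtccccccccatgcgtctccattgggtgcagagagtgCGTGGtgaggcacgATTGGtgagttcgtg

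The Hsp90b1 stretch holds 2 elements in opposite orientations, the second of which reads as CGTGG, 9 bases and ATTGG on the printed strand. The element was found in 4 of the 10 genes, and over all genes in 37 of 27025 (0.137%), these 4 included. By window, it was in 39 of 32851 promoters (0.119%). The ERSE-II motif ATTGGNCCACG, the core TGACGTGG of the UPR element and the core TTGCATCA bound by Atf4 dimers were in none of the 10 windows and in 0.0365%, 0.676% and 0.895% of all windows. A match is letters in a window, and no binding was measured. The Hspa5 element lies inside the Hspa5 entry that was counted (chr2:34771970-34777547), which starts upstream of the RefSeq start. The map of the windows gives the positions.

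**Figure D1:**
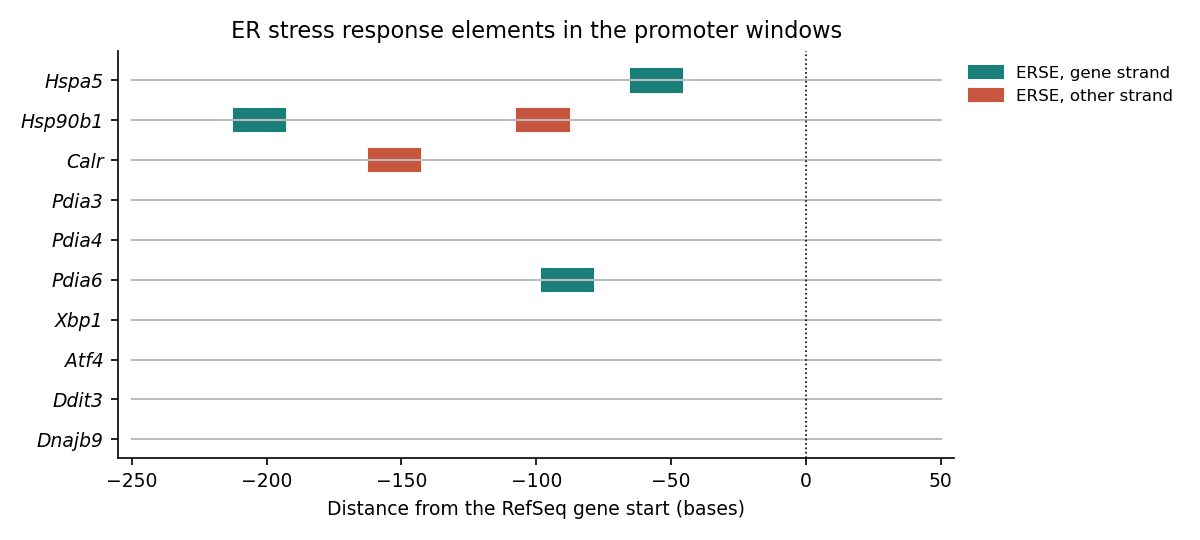
Positions of the ER stress element in the promoter windows of the 10 genes; the x axis is the distance in bases from the RefSeq start of each gene, grey lines are the windows, and blocks are elements, coloured by whether they read along the strand of the gene or along the other strand. Hsp90b1 has 2 elements, Hspa5, Calr and Pdia6 have 1 each, and the other 6 windows have none.

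Libraries held 11098031 to 19270976 counts and detected 22813 to 24237 genes. Replicates lay close together, with a biological coefficient of variation of 3.74%. Of the 16595 genes tested, 5-FU+Saline against Control called 32.8% higher and 32.7% lower, 5-FU+FMT against 5-FU+Saline called 17.7% higher and 19.2% lower, and 5-FU+FMT against Control called 25% higher and 21.6% lower, so calls were frequent among all genes. The libraries of the groups compared did not overlap for 67.8%, 46.3% and 52.7% of genes in these comparisons. Of 12 LT-HSC and gate genes, 5 were higher and 5 lower in 5-FU+Saline than in Control, with log2 fold changes from -3.04 to 2.06. Slamf1, which encodes the CD150 of the gate, averaged 24.4, 34.5 and 8.35 CPM (counts per 1000000 counts of the scaled library) in 5-FU+FMT, 5-FU+Saline and Control. Cd48, which the gate should exclude, averaged 46.7, 53.7 and 30.7 CPM in the same groups. Both genes are named outside the rule for naming, and both ran opposite to the sum of the 12. That sum was 1847 to 1907 CPM in 5-FU+FMT, 1361 to 1374 CPM in 5-FU+Saline and 2621 to 2650 CPM in Control. Xist, the RNA of the inactive X chromosome in females, averaged 682 CPM in 5-FU+FMT, 1201 CPM in 5-FU+Saline and 0.870 CPM in Control, and the labels give no sex, and its libraries did not overlap between any groups, so a difference in sex and the treatment cannot be told apart in any of the 3 comparisons. Markers of other lineages were present in all groups at different levels, which is given beside the results they touch.

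Relative to Control, 5-FU+Saline cells held far less RNA of Hspa5, Ddit3, Dnajb9 and Atf4, less of Xbp1, and slightly less of Calr and Hsp90b1. They held more of Pdia3 and slightly more of Pdia6. 5-FU+FMT cells lay between these groups for Hspa5, Xbp1, Atf4, Ddit3, Dnajb9, Pdia3 and Pdia6. Of the 10 genes, 2 were called higher and 7 lower in 5-FU+Saline than in Control, where 32.8% and 32.7% of all genes were. Against 5-FU+Saline, 5 were higher and 2 lower in 5-FU+FMT (17.7% and 19.2% of all genes), and against Control 1 was higher and 8 lower in 5-FU+FMT (25% and 21.6% of all genes). All these calls are at an adjusted p under 0.05. The median log2 fold changes of the 10 genes were -0.33, 0.11 and -0.21 in these comparisons, beside -0.02, 0.01 and -0.01 over all tested genes. Since bulk RNA was measured, fewer cells of a type and less RNA per cell cannot be told apart in any of these differences.

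**Figure D2:**
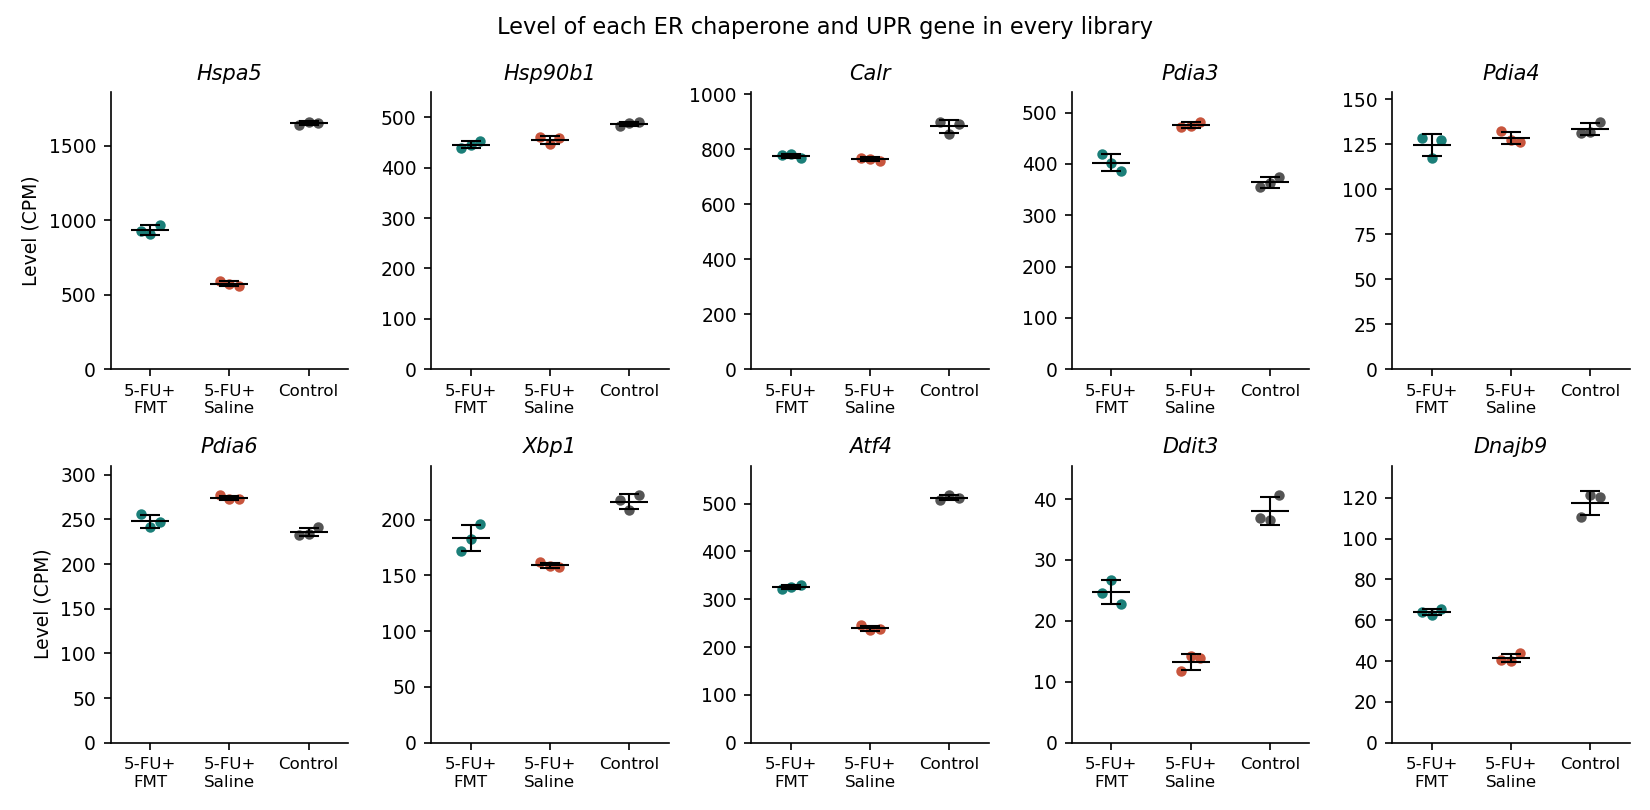
CPM of each of the 10 genes (y axis from 0, 1 panel a gene) in the 3 libraries of 5-FU+FMT, 5-FU+Saline and Control; points are libraries, and the line and bar are the mean and SD over 3 libraries. Hspa5, Xbp1, Atf4, Ddit3 and Dnajb9 are lowest in 5-FU+Saline and highest in Control, while Pdia3 and Pdia6 run the other way.

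Hspa5 (chr2:34771970-34777547, mm10) is the main ER chaperone of the Hsp70 family. It was measured at 929, 908 and 971 CPM in the 5-FU+FMT libraries, at 593, 572 and 560 CPM in 5-FU+Saline and at 1638, 1662 and 1655 CPM in Control. The 3 groups did not overlap, with Control highest and 5-FU+Saline lowest. Group means were 936 ± 32.2, 575 ± 16.6 and 1652 ± 12.4 CPM (SD, n = 3 each). Hspa5 was 2.87-fold lower in 5-FU+Saline than in Control (log2 fold change -1.52, SE 0.0249, adjusted p = 1.35e-61 in edgeR's quasi-likelihood test). It was 1.63-fold higher in 5-FU+FMT than in 5-FU+Saline (0.70, SE 0.0248, adjusted p = 1.78e-38) and 1.76-fold lower in 5-FU+FMT than in Control (-0.82, SE 0.0243, adjusted p = 1.88e-43).

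Hsp90b1 (GRP94, chr10:86690209-86705509) is the ER member of the Hsp90 family and folds integrins and Toll-like receptors. Its libraries were at 439, 445 and 452 CPM in 5-FU+FMT, 462, 447 and 458 CPM in 5-FU+Saline and 483, 488 and 491 CPM in Control. Control lay above both treated groups, which overlapped each other. The differences were small, 1.07-fold lower in 5-FU+Saline than in Control (log2 fold change -0.10, SE 0.0266, adjusted p = 0.000972) and 1.09-fold lower in 5-FU+FMT than in Control (-0.13, SE 0.0268, adjusted p = 3.02e-05). The call for 5-FU+Saline was lost when no filter on low counts was used (-0.05, adjusted p = 0.132). Between 5-FU+FMT and 5-FU+Saline no difference passed the test (-0.03, SE 0.0267, adjusted p = 0.352). Hsp90b1 shares 415 of its 4032 exon bases with 1810014B01Rik on the opposite strand, and the counting did not use strand. That gene held 170 to 288 counts in a library. Gm15344, which shares 84 bases on the same strand, held 49 to 180. The effect of these overlaps on the counts of Hsp90b1 was not tested.

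Calr (chr8:84841850-84846934) is the calcium-binding lectin chaperone of glycoproteins. It was at 779, 782 and 768 CPM in 5-FU+FMT, 770, 766 and 757 CPM in 5-FU+Saline and 900, 856 and 892 CPM in Control. Both treated groups lay below Control and overlapped each other. Calr was 1.16-fold lower in 5-FU+Saline than in Control (log2 fold change -0.21, SE 0.0243, adjusted p = 5.57e-12) and 1.14-fold lower in 5-FU+FMT than in Control (-0.19, SE 0.0244, adjusted p = 7.65e-10). Between 5-FU+FMT and 5-FU+Saline the value was 0.02 (SE 0.0243, adjusted p = 0.484).

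**Figure D3:**
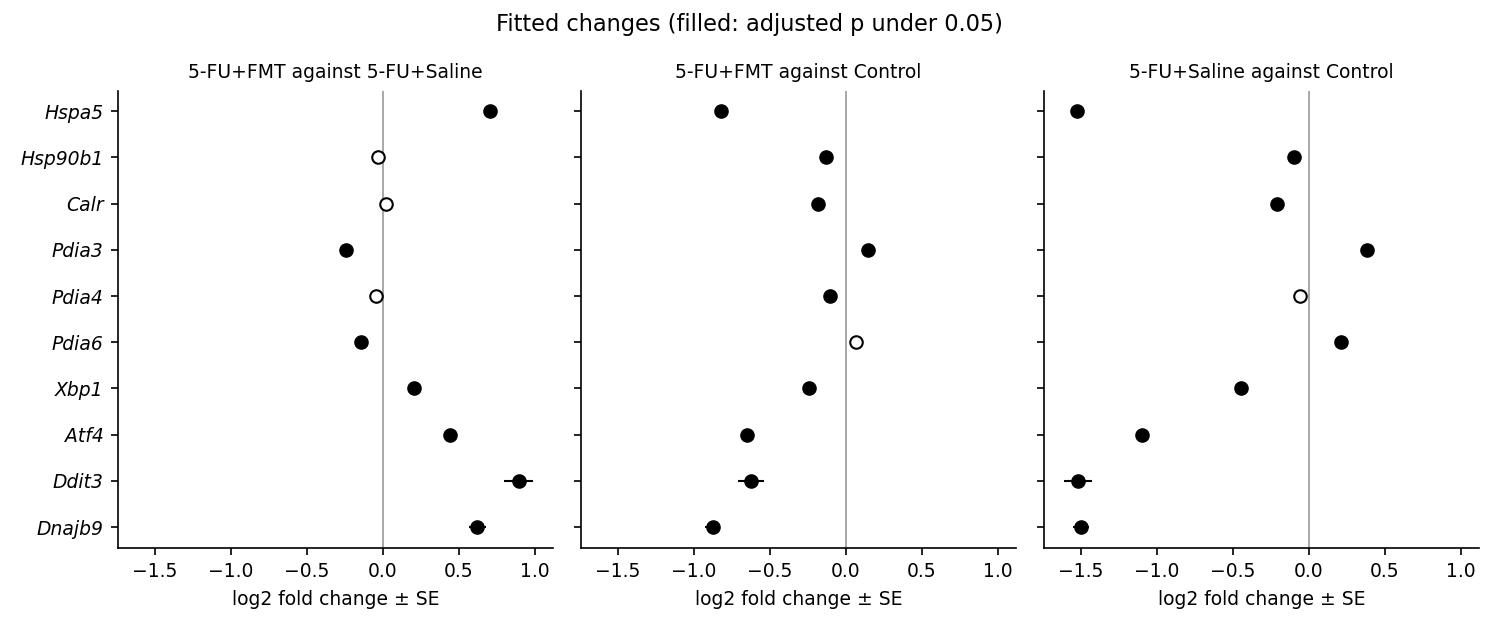
Fitted log2 fold change (x axis) of the 10 genes in 5-FU+FMT against 5-FU+Saline, 5-FU+FMT against Control and 5-FU+Saline against Control, with bars of 1 SE; filled points are called at an adjusted p under 0.05. In 5-FU+Saline against Control, Hspa5, Ddit3 and Dnajb9 lie near -1.5, Calr lies at -0.21, and Pdia3 and Pdia6 lie at 0.38 and 0.21. Hsp90b1 and Pdia4 lie from -0.13 to -0.03 throughout.

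Among the disulfide isomerases, which form and rearrange the sulfur bonds of folding proteins, Pdia3 was higher than in Control in both treated groups, Pdia6 passed the test against Control in 5-FU+Saline but not in 5-FU+FMT, and Pdia4 differed by at most 1.07-fold. Pdia3 (ERp57, chr2:121413775-121438687), the partner of the lectin chaperones, was at 418, 403 and 386 CPM in 5-FU+FMT, 471, 473 and 482 CPM in 5-FU+Saline and 354, 363 and 375 CPM in Control. The groups did not overlap, and 5-FU+Saline was highest. Pdia3 was 1.30-fold higher in 5-FU+Saline than in Control (log2 fold change 0.38, SE 0.0288, adjusted p = 3.23e-20). It was 1.18-fold lower in 5-FU+FMT than in 5-FU+Saline (-0.24, SE 0.0285, adjusted p = 4.16e-11) and 1.10-fold higher in 5-FU+FMT than in Control (0.14, SE 0.0292, adjusted p = 2.77e-05).

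Pdia6 (P5, chr12:17266545-17284770), which acts with Hspa5 and in cultured cells also limits IRE1 activity, was at 256, 241 and 247 CPM in 5-FU+FMT, 277, 273 and 272 CPM in 5-FU+Saline and 233, 234 and 241 CPM in Control. The 5-FU+Saline libraries stood above both other groups, whose nearest libraries were both at 241 CPM. The gene was 1.16-fold higher in 5-FU+Saline than in Control (0.21, SE 0.0311, adjusted p = 7.34e-09) and 1.10-fold lower in 5-FU+FMT than in 5-FU+Saline (-0.14, SE 0.0309, adjusted p = 9.56e-05). In 5-FU+FMT against Control it did not pass the test (0.07, SE 0.0316, adjusted p = 0.0627), though it did without Control replicate 3 (0.09, adjusted p = 0.0426) or 5-FU+FMT replicate 2 (0.09, adjusted p = 0.0281).

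Pdia4 (ERp72, chr6:47796141-47813430) was at 129, 118 and 127 CPM in 5-FU+FMT, 132, 127 and 126 CPM in 5-FU+Saline and 131, 132 and 137 CPM in Control. The 5-FU+Saline libraries overlapped both other groups, and neither comparison with that group passed the test (-0.06 against Control, SE 0.0404, adjusted p = 0.207; 5-FU+FMT against 5-FU+Saline -0.05, SE 0.0406, adjusted p = 0.404). Against Control, 5-FU+FMT was 1.07-fold lower (-0.10, SE 0.0411, adjusted p = 0.0323). That call was lost without Control replicate 3 (-0.08, adjusted p = 0.181) and without 5-FU+FMT replicate 2 (-0.06, adjusted p = 0.285).

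The transcription factors all fell in 5-FU+Saline. Xbp1 (chr11:5520659-5525893), which encodes the factor made from IRE1-spliced mRNA, was at 172, 182 and 196 CPM in 5-FU+FMT, 162, 158 and 157 CPM in 5-FU+Saline and 217, 209 and 222 CPM in Control. Counts per gene do not separate its spliced from its unspliced mRNA. Without overlap between groups, Xbp1 was 1.36-fold lower in 5-FU+Saline than in Control (-0.45, SE 0.0363, adjusted p = 2.08e-18). It was 1.15-fold higher in 5-FU+FMT than in 5-FU+Saline (0.21, SE 0.0367, adjusted p = 3.38e-06) and 1.18-fold lower in 5-FU+FMT than in Control (-0.24, SE 0.0363, adjusted p = 4.30e-08).

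Atf4 (chr15:80255184-80257541), the factor of the eIF2 branch, was at 322, 325 and 330 CPM in 5-FU+FMT, 246, 236 and 237 CPM in 5-FU+Saline and 508, 517 and 511 CPM in Control. Each group kept within a few percent of its own mean and far from the others. Atf4 RNA was 2.14-fold lower in 5-FU+Saline than in Control (-1.10, SE 0.0286, adjusted p = 8.79e-48), 1.36-fold higher in 5-FU+FMT than in 5-FU+Saline (0.44, SE 0.0291, adjusted p = 2.30e-22) and 1.57-fold lower in 5-FU+FMT than in Control (-0.65, SE 0.0282, adjusted p = 4.42e-33). Atf4 is controlled largely by translation, which was not measured.

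Ddit3 (CHOP, chr10:127290774-127296288) is a target of Atf4 and a partner of C/EBP factors linked to cell death under lasting stress. It was the least abundant of the 10, at 24.6, 26.8 and 22.8 CPM in 5-FU+FMT, 11.8, 14.2 and 13.8 CPM in 5-FU+Saline and 36.8, 36.6 and 40.6 CPM in Control, or 179 to 762 counts a library. The groups did not overlap. Ddit3 was 2.86-fold lower in 5-FU+Saline than in Control (-1.52, SE 0.0908, adjusted p = 2.19e-25) and 1.86-fold higher in 5-FU+FMT than in 5-FU+Saline (0.89, SE 0.0949, adjusted p = 8.97e-13). Against Control it was 1.54-fold lower in 5-FU+FMT (-0.63, SE 0.0852, adjusted p = 2.25e-09). It shares 68 of 1713 exon bases with Mars on the opposite strand, which held more counts than Ddit3 in each library, 876 to 2348, and was higher in 5-FU+Saline; the part of Mars reads in the counts of Ddit3 was not tested.

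Dnajb9 (ERdj4, chr12:44205559-44210326), an Xbp1 target that brings Hspa5 to IRE1, was at 63.9, 62.6 and 65.7 CPM in 5-FU+FMT, 40.5, 40.3 and 43.9 CPM in 5-FU+Saline and 111, 121 and 121 CPM in Control. Its groups stood apart in the same order as those of Hspa5. Dnajb9 was 2.82-fold lower in 5-FU+Saline than in Control (-1.50, SE 0.0535, adjusted p = 7.39e-39), 1.54-fold higher in 5-FU+FMT than in 5-FU+Saline (0.62, SE 0.0566, adjusted p = 1.85e-15) and 1.83-fold lower in 5-FU+FMT than in Control (-0.88, SE 0.0516, adjusted p = 3.34e-25). The comparisons share groups, so their values stand side by side and do not bear each other out. The libraries did not overlap for 7 of the 10 genes in 5-FU+FMT against 5-FU+Saline (46.3% of all genes), 9 in 5-FU+Saline against Control (67.8%) and all 10 in 5-FU+FMT against Control (52.7%). In the last of these, the nearest Pdia6 libraries were both at 241 CPM, and Pdia6 did not pass the test.

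Levels between genes were compared as CPM per kilobase of exon. Per kilobase, Calr led the 10 genes in 5-FU+FMT and in 5-FU+Saline, and Hspa5 led in Control. Hspa5 was at 215 to 230 CPM per kb in 5-FU+FMT, 132 to 140 in 5-FU+Saline and 387 to 393 in Control. Calr held 267 to 272, 263 to 267 and 297 to 312 CPM per kb in the same groups. In 5-FU+Saline, Pdia3 also stood above Hspa5, at 150 to 154 CPM per kb. Next came Hsp90b1 at 111 to 114 and Atf4 at 100 to 104 CPM per kb, and the lowest in every group was Ddit3, at 13.3 to 15.6, 6.91 to 8.28 and 21.4 to 23.7 CPM per kb in 5-FU+FMT, 5-FU+Saline and Control. Among the 16595 tested genes ranked per kilobase, Hspa5 was at rank 162, 272 and 92 in these groups, and Ddit3 at 4137, 6749 and 2527.

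Within a library, the ratio of Hspa5 to another member does not depend on the scaling of libraries. Per kilobase, Hspa5 was 2.02, 1.95 and 2.05 times Hsp90b1 in the 5-FU+FMT libraries, 1.22, 1.22 and 1.16 times in 5-FU+Saline and 3.23, 3.25 and 3.21 times in Control. Relative to Pdia3 it was 1.65, 1.67 and 1.87 times in 5-FU+FMT, 0.934, 0.898 and 0.862 times in 5-FU+Saline and 3.43, 3.4 and 3.27 times in Control. So the mix of ER chaperone RNAs differed between the groups. The ratio of Ddit3 to Atf4 was 0.105, 0.113 and 0.0951 in 5-FU+FMT, 0.0663, 0.0828 and 0.0803 in 5-FU+Saline and 0.0999, 0.0973 and 0.109 in Control, where the ranges of 5-FU+FMT and Control overlapped. Dnajb9 to Xbp1 ran from 0.428 to 0.472, from 0.319 to 0.356 and from 0.649 to 0.739 in the same groups.

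**Figure D4:**
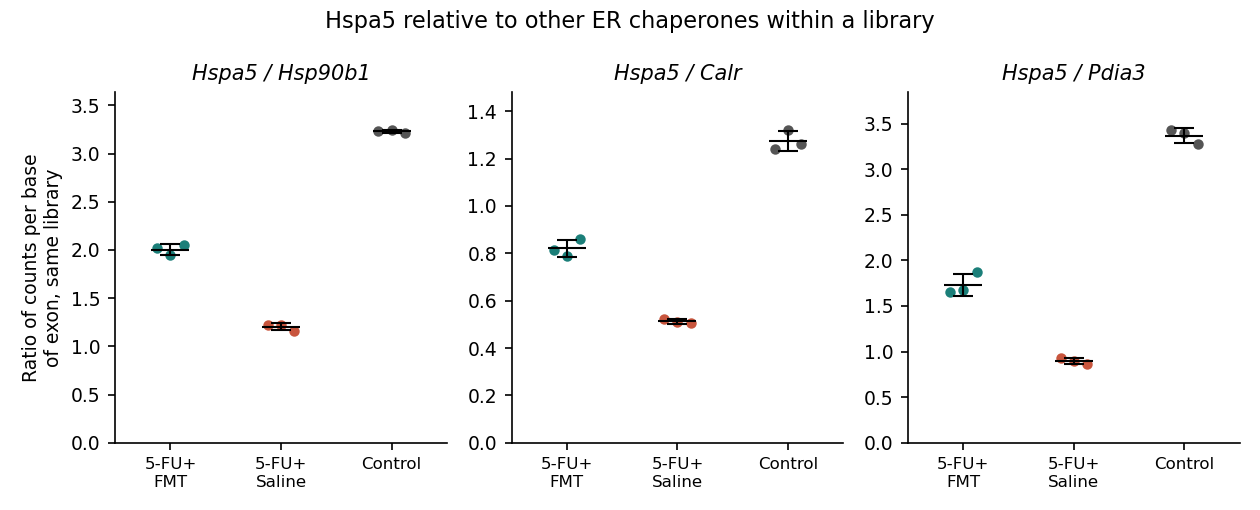
Ratio of Hspa5 to Hsp90b1, Calr and Pdia3 within each library, each gene per kilobase of exon, for 5-FU+FMT, 5-FU+Saline and Control; points are libraries, and the line and bar are the mean and SD over 3 libraries. Every ratio is lowest in 5-FU+Saline and highest in Control, with no overlap between groups.

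The genes whose pattern was most like that of Hspa5 over the 9 libraries were Btg1, Tsc22d1, Junb, Dnajb1 and Zyx, out of 2875 genes with at least 100 CPM in a group. Their root-mean-square distances from Hspa5, on the log2 scale after centring each gene, were 0.0245, 0.0313, 0.0332, 0.0347 and 0.0351. None of these 5 is an ER chaperone: Btg1 is an anti-proliferative gene, Junb an AP-1 factor and Dnajb1 a cytosolic heat shock co-chaperone. The nearest of the 10 genes was Dnajb9 at 0.0677, followed by Ddit3 at 0.149 and Atf4 at 0.177. Xbp1 lay at 0.444, and Pdia3 was farthest at 0.781.

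Immediate early genes, which rise within minutes of a stimulus, cell handling included, moved in the same order as Hspa5. Their summed level was 12188 to 13334 CPM in 5-FU+FMT, 4313 to 4369 CPM in 5-FU+Saline and 28408 to 28567 CPM in Control. All 14 were lower in 5-FU+Saline than in Control (32.7% of all genes) and higher in 5-FU+FMT than in 5-FU+Saline (17.7%). All 14 were also lower in 5-FU+FMT than in Control (21.6%). Fos had 1530, 1538 and 1646 CPM in 5-FU+FMT, 485, 490 and 491 CPM in 5-FU+Saline and 3685, 3583 and 3582 CPM in Control. The cytosolic heat shock gene Hspa1b averaged 100 CPM in 5-FU+FMT, 2.05 CPM in 5-FU+Saline and 304 CPM in Control, while the summed level of its list of 12 was highest in 5-FU+Saline (7424 to 7619, 7888 to 8009 and 7424 to 7509 CPM). Whether these genes and the ER genes share a source was not tested.

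Plasma cells secrete antibody and hold much Hspa5, Hsp90b1 and Xbp1, and their markers also differed between groups. The 13 markers summed to 11950 to 12430 CPM in 5-FU+FMT, 10997 to 11354 CPM in 5-FU+Saline and 16975 to 17350 CPM in Control, and none was at 0. Against Control, 8 were lower and 3 higher in 5-FU+Saline (8 and 1 with upper-quartile factors), and 8 were lower and 0 higher in 5-FU+FMT. Against 5-FU+Saline, 6 were higher and 3 lower in 5-FU+FMT. Marker counts here and below stand beside shares over all genes of 32.8% higher and 32.7% lower in 5-FU+Saline against Control. The shares were 17.7% and 19.2% in 5-FU+FMT against 5-FU+Saline, and 25% and 21.6% in 5-FU+FMT against Control. Igha averaged 6559, 5956 and 9654 CPM, Jchain 1820, 1497 and 2694 CPM, Sdc1 46.7, 32.8 and 67.9 CPM, and Mzb1 14.4, 18.7 and 14.6 CPM in 5-FU+FMT, 5-FU+Saline and Control. The part of such cells in the levels of the 10 genes was not tested.

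Other lineage markers also moved. The 9 B lineage markers summed to 425 to 468 CPM in 5-FU+FMT, 919 to 937 CPM in 5-FU+Saline and 54.6 to 55.1 CPM in Control, an order shared with Pdia3 and Pdia6; all 9 were higher in 5-FU+Saline than in Control and lower in 5-FU+FMT than in 5-FU+Saline. The 10 stromal markers, with Col3a1 at 0 in Control, ran in the same order, at 83.1 to 88.3, 267 to 275 and 62.9 to 64.2 CPM. Of these, 9 were higher and 1 lower in 5-FU+Saline than in Control, and 1 was higher and 8 lower in 5-FU+FMT than in 5-FU+Saline.

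Sums of 3 other lineage lists ran in the order of Hspa5 without overlap between groups. The sums of the immediate early genes and the plasma cell markers did so too. So did that of the 12 LT-HSC and gate genes, at 1847 to 1907 CPM in 5-FU+FMT, 1361 to 1374 CPM in 5-FU+Saline and 2621 to 2650 CPM in Control. The single genes of that list were split, with 5 higher and 5 lower in 5-FU+Saline than in Control. In 5-FU+FMT against 5-FU+Saline, 5 of them were higher and 4 lower, so the sum does not stand for the list as a whole. The 11 erythroid markers summed to 817 to 854 CPM in 5-FU+FMT, 486 to 500 CPM in 5-FU+Saline and 1302 to 1323 CPM in Control, with 1 higher and 9 lower in 5-FU+Saline than in Control and 8 higher and 1 lower in 5-FU+FMT than in 5-FU+Saline. Most of this sum was Car2, at 597, 416 and 823 CPM in 5-FU+FMT, 5-FU+Saline and Control. Hbb-bt ran the other way, at 22.7, 27.4 and 8.19 CPM. Car2 and Hbb-bt are named outside the rule for naming. The 7 mast cell and basophil markers summed to 58.2 to 61.2, 18.8 to 20.7 and 87.6 to 89.6 CPM in the same groups, with 2 higher and 5 lower, then 6 higher and 0 lower. The 11 neutrophil markers summed to 892 to 1013, 160 to 176 and 2325 to 2369 CPM, but were split, with 4 higher and 6 lower, then 6 higher and 4 lower. Mpo, a primary granule gene, ran in the order of the sum, at 469, 29.9 and 1277 CPM, while the late granule gene Ltf ran the other way, at 4.94, 8.85 and 0.200 CPM; both were named after their values were seen.

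The 8 monocyte and macrophage markers summed to 118 to 126 CPM in 5-FU+FMT, 111 to 119 CPM in 5-FU+Saline and 175 to 193 CPM in Control, with 4 higher and 3 lower in 5-FU+Saline than in Control. The 7 endothelial markers summed to 152 to 161, 171 to 184 and 147 to 154 CPM, with 4 higher and 2 lower in 5-FU+Saline than in Control. In that comparison 32.8% of all genes were higher and 32.7% lower. The part of these cell types in the levels of the 10 genes was not tested either.

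Around the 10 genes, 8 lists of related genes were described by their counts of calls; 101 of 102 listed genes were tested. Their counts are to be read beside the shares of all tested genes called, 32.8% higher and 32.7% lower in 5-FU+Saline against Control, 17.7% and 19.2% in 5-FU+FMT against 5-FU+Saline, and 25% and 21.6% in 5-FU+FMT against Control. Of the 6 ER stress sensors and the proteases that activate them, Ern1 moved most, with 167 CPM in 5-FU+FMT, 123 CPM in 5-FU+Saline and 225 CPM in Control (log2 fold change of 5-FU+Saline against Control -0.88, adjusted p = 1.18e-33; of 5-FU+FMT against 5-FU+Saline 0.45, adjusted p = 1.76e-16). In 5-FU+Saline against Control 1 of the list was higher and 2 lower, Mbtps1 being the other lower one (-0.16, adjusted p = 7.74e-05). Eif2ak3 and Atf6 were called in no comparison and are named outside the rule for naming genes; Eif2ak3 averaged 36.2, 37.7 and 38.1 CPM and Atf6 72.2, 66.6 and 71.2 CPM in 5-FU+FMT, 5-FU+Saline and Control.

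Of 13 other ER chaperones and co-chaperones, 4 were higher and 3 lower in 5-FU+Saline than in Control (4 and 6 with upper-quartile factors). In 5-FU+FMT against 5-FU+Saline 2 were higher and 6 lower (1 and 7 with RLE factors). Canx, the membrane-bound partner of Calr, went the opposite way to Calr: it averaged 434 CPM in 5-FU+FMT, 504 CPM in 5-FU+Saline and 362 CPM in Control (5-FU+Saline against Control 0.47, adjusted p = 4.48e-25; 5-FU+FMT against 5-FU+Saline -0.21, adjusted p = 1.64e-09). Dnajc10, an ER reductase, followed Canx with 123, 140 and 95 CPM. Among 11 genes of oxidative folding, 5 were higher and 4 lower in 5-FU+Saline than in Control (2 and 4 with upper-quartile factors, 6 and 3 with RLE factors). The one with the largest fold was the peroxiredoxin Prdx4 at 62.1 CPM in 5-FU+FMT, 80.2 CPM in 5-FU+Saline and 36.2 CPM in Control (5-FU+Saline against Control 1.16, adjusted p = 4.34e-29). Of these 11, 0 were higher and 3 lower in 5-FU+FMT than in 5-FU+Saline (0 and 1 with upper-quartile factors). Of 10 N-glycan processing genes, 6 were higher and 2 lower in 5-FU+Saline than in Control (4 and 3 with upper-quartile factors), and 0 higher and 3 lower in 5-FU+FMT than in 5-FU+Saline (2 and 3 with upper-quartile factors). Mogs, the first trimming glucosidase, averaged 174, 208 and 143 CPM in 5-FU+FMT, 5-FU+Saline and Control.

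The 14 genes of the translocon and signal peptidase, which carry new chains into the ER, were mostly higher in 5-FU+Saline than in Control, 11 higher and 2 lower with a median log2 fold change of 0.19 (all genes -0.02). With upper-quartile factors, which put the median of all genes at -0.10, these counts were 7 and 3. Against 5-FU+Saline, 1 was higher and 8 lower in 5-FU+FMT. Ssr1 averaged 237, 275 and 211 CPM in 5-FU+FMT, 5-FU+Saline and Control. Sec62 ran the other way, at 114, 101 and 129 CPM.

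The 14 genes of ER-associated degradation, which returns misfolded proteins to the cytosol, were mixed, with 4 higher and 8 lower in 5-FU+Saline than in Control and a median log2 fold change of -0.19. Herpud1, a scaffold of the ligase complex, averaged 116 CPM in 5-FU+FMT, 91.3 CPM in 5-FU+Saline and 184 CPM in Control (5-FU+Saline against Control -1.01, adjusted p = 3.81e-36; 5-FU+FMT against 5-FU+Saline 0.34, adjusted p = 8.67e-11). Derl3, which has an ER stress element in its promoter window, averaged 23.2, 16.7 and 38.7 CPM (5-FU+Saline against Control -1.21, adjusted p = 2.13e-21; 5-FU+FMT against 5-FU+Saline 0.48, adjusted p = 9.68e-06). Vcp, the ATPase that pulls proteins from the ER membrane, was higher in 5-FU+Saline, with 419, 470 and 335 CPM. Of the 14, 5 were higher and 3 lower in 5-FU+FMT than in 5-FU+Saline.

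Of 12 genes of eIF2 control, 6 were higher and 3 lower in 5-FU+Saline than in Control (4 and 3 with upper-quartile factors), beside 32.8% and 32.7% of all genes. Ppp1r15a (GADD34), which returns eIF2 to its unphosphorylated state, averaged 360 CPM in 5-FU+FMT, 248 CPM in 5-FU+Saline and 582 CPM in Control (5-FU+Saline against Control -1.23, adjusted p = 2.12e-50; 5-FU+FMT against 5-FU+Saline 0.53, adjusted p = 2.47e-26). Impact, an inhibitor of the eIF2 kinase GCN2, averaged 73.2, 53.9 and 112 CPM. Eif2s1, the eIF2 alpha subunit itself, was higher in 5-FU+Saline, with 127, 159 and 90.2 CPM (0.82, adjusted p = 2.32e-30).

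Of 21 tested genes known as targets or partners of Atf4 and Ddit3, 8 rose and 9 fell in 5-FU+Saline against Control, beside shares of 32.8% and 32.7% over all genes, and their median log2 fold change was 0.11. Against 5-FU+Saline, 5 were higher and 6 lower in 5-FU+FMT, and against Control 7 were higher and 9 lower in 5-FU+FMT. Atf3, a stress factor that is also an immediate early gene, was at 41.0, 41.0 and 47.6 CPM in 5-FU+FMT, 14.0, 12.5 and 8.36 CPM in 5-FU+Saline and 112, 98.9 and 107 CPM in Control. It was 9.29-fold lower in 5-FU+Saline than in Control (-3.22, adjusted p = 3.46e-48) and 3.78-fold higher in 5-FU+FMT than in 5-FU+Saline (1.92, adjusted p = 1.54e-30). Bbc3 (PUMA), a death gene, averaged 20.8, 14.0 and 31.3 CPM.

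The genes of this list that rose with the smallest p were Psat1 and Slc7a5. Psat1, of serine synthesis, was at 155, 154 and 144 CPM in 5-FU+FMT, 199, 207 and 200 CPM in 5-FU+Saline and 88.1, 90.6 and 85.7 CPM in Control, without overlap. It was 2.30-fold higher in 5-FU+Saline than in Control (1.20, adjusted p = 3.65e-41) and 1.34-fold lower in 5-FU+FMT than in 5-FU+Saline (-0.42, adjusted p = 3.02e-16). Slc7a5, a transporter of large neutral amino acids, averaged 131, 181 and 77.1 CPM in 5-FU+FMT, 5-FU+Saline and Control (1.22 in 5-FU+Saline against Control, adjusted p = 9.92e-40). Asns, Slc3a2 and Slc7a11, also amino acid genes, and Phgdh, Shmt2 and Mthfd2 were named after their values were seen. Asns, of asparagine synthesis, averaged 26.4, 21.1 and 31.5 CPM (-0.58 in 5-FU+Saline against Control, adjusted p = 5.40e-09). Slc3a2, the partner chain of Slc7a5, averaged 205, 217 and 238 CPM (-0.13, adjusted p = 0.000295). Slc7a11, a cystine transporter, averaged 0.326, 0.619 and 1.20 CPM and did not pass the test in that comparison (adjusted p = 0.0644). It was lower in 5-FU+FMT than in Control (-1.92, adjusted p = 0.00266). Phgdh, Shmt2 and Mthfd2 went the other way and were higher in 5-FU+Saline than in Control. Their log2 fold changes were 0.71, 0.74 and 1.72 (adjusted p = 3.19e-33, 3.31e-32 and 3.22e-30).

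**Figure D5:**
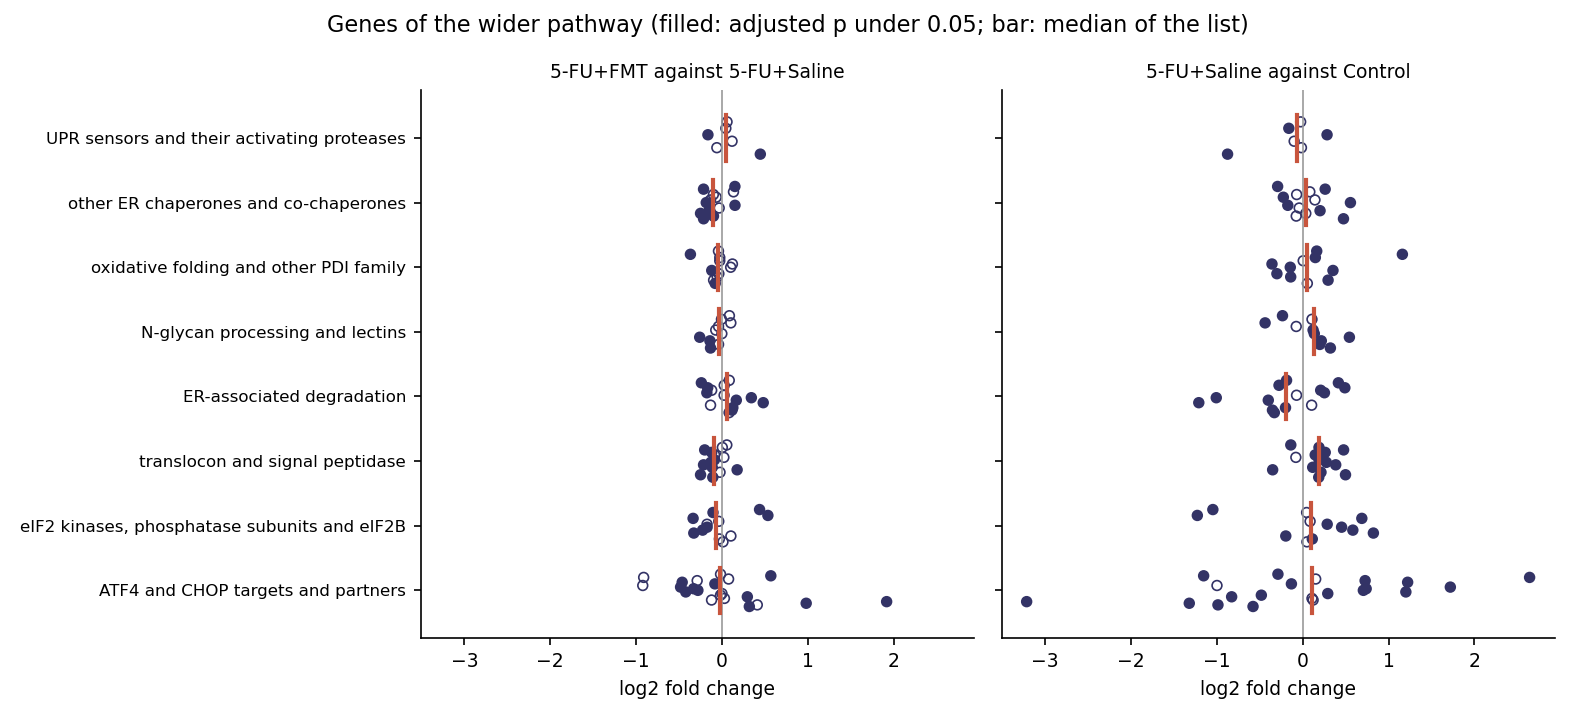
Fitted log2 fold change (x axis) of the tested genes of the 8 related lists, 1 row a list, in 5-FU+FMT against 5-FU+Saline and in 5-FU+Saline against Control; points are genes, filled at an adjusted p under 0.05, the upright bar is the median of a list, and the grey line is 0. Translocon genes lie mostly above 0 in 5-FU+Saline against Control, and the Atf4 and Ddit3 targets spread on both sides, from Atf3 at -3.22 upward.

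Genes that carry the ER stress element in the promoter window did not move as one. Of 37 such genes, a list made after the data were seen, 21 had a test. Against Control, 4 rose and 12 fell in 5-FU+Saline (32.8% and 32.7% of all genes), with a median log2 fold change of -0.20. Against 5-FU+Saline, 4 were higher and 2 lower in 5-FU+FMT (17.7% and 19.2% of all genes, median 0.05). Against Control, 2 were higher and 9 lower in 5-FU+FMT (25% and 21.6% of all genes, median -0.15). These counts include members of the 10 genes. Without them 17 genes had a test, of which 3 rose and 9 fell in 5-FU+Saline against Control. Within the 10 genes the element was in Hspa5, which fell by 1.52 on the log2 scale in 5-FU+Saline against Control, in Calr and Hsp90b1, which fell by 0.21 and 0.10, and in Pdia6, which rose by 0.21. Atf4, Ddit3, Dnajb9 and Xbp1, which also fell, had no exact match in the window searched.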

How the data were processed

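The deposited values are raw read counts per gene, with the exon length of each gene. The submitters' processing notes name Trim Galore 0.6.5 for trimming, HISAT2 2.2.1 on the build mm10, and SAMtools. Per the file headers, featureCounts 2.0.1 counted read pairs over exons by gene (GENCODE M25), with no strand or multimapping option. From here on values were computed for this report. IDs were given symbols from a name table (55141 of 56262). Genes were filtered with filterByExpr (16595 left) and libraries scaled by TMM; CPM uses the scaled sizes. The 9 libraries were fitted by group in edgeR 4.0.16 (quasi-likelihood test; limma 3.58.1, R 4.3.3), with p-values adjusted by Benjamini-Hochberg over all tested genes and calls made under 0.05. All adjusted p-values are from this test. The SE is the log2 fold change divided by the square root of F. DESeq2 1.42.0 and limma-voom were alternatives. Figures used matplotlib 3.10.9 in Python 3.11.15. Promoter windows are RefSeq's (GRCm38.p6). Exon overlaps came from the count tables, and near-copies were sought with BLAST 2.17.0. Members and gene lists were chosen with earlier results of these data known, so no list was tested. Named were all 10 genes and, from each related list and comparison, up to 2 called genes per direction with the smallest p and at least 10 CPM in a group, with exceptions marked; text gives a selection of these.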

Additional observations from a re-analysis of the deposited data

How the results depend on the processing

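The 30 fold changes of the 10 genes were recomputed under 17 other settings: RLE and upper-quartile factors, no filter, a stricter filter (10 CPM in 3 libraries), DESeq2, limma-voom, only the groups compared, the replicate block, and each library left out. Of 510 values, 501 kept direction and call, 5 gained a call, 4 lost one and none reversed. Members called higher in 5-FU+FMT than in Control numbered 2 with no filter, in place of 1, and 1 to 2 with a library left out, 2 without Control replicate 3 or 5-FU+FMT replicate 2. With no filter, Pdia6 gained that call (0.11, adjusted p = 0.00385) and Pdia4 lost its own (-0.06, adjusted p = 0.366). Pdia4 became lower in 5-FU+Saline than in Control with upper-quartile factors (-0.13, adjusted p = 0.00293) and the stricter filter (-0.11, adjusted p = 0.0104). The replicate block gave 2 higher and 7 lower, 5 and 2, and 1 and 8, the main counts. After removing group means, libraries of the same number correlated at -0.0173 to 0.0194 (9 pairs) and others at -0.0296 to 0.0281. No effect shared by libraries of the same number was seen, but this cannot show whether the samples were paired. Depth limits Ddit3 most, at 179 to 762 counts a library.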
